A study of Homo sapiens with 3 samples.

Results

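Pairs of 3′ ends that lie close together, read from poly(A)-selected RNA, were examined in HEK293T, a human line derived from embryonic kidney. Captured RNA came from cells labelled for 30 or 60 min with 4-thiouridine (4sU), at a dose the labels write as 1000 mM, and uncaptured RNA came from the input of the 30 min labelling, whose treatment label reads none. 4sU is a uridine analogue that cells build into RNA during labelling, so capture through it favours RNA made in that time, while the input holds RNA of all ages. Each group had 1 library (n = 1). A pair was a cluster of exactly 2 ends on the same strand that lay 25 to 250 nt apart and had at least 300 counts over the 3 libraries. This rule gave 1147 pairs among 5504 clusters of 2 or more ends with the same minimum of counts, or 20.8% of them, and the members were chosen by the counts summed over the libraries, with no use of the change between them. All comparisons below have no replicate check, give no p-value and carry intervals for counting error only.

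When an mRNA precursor is cut, the cleavage machinery recognises a signal, most often the hexamer AAUAAA, and the RNA is cut a short way downstream of it and given a poly(A) tail. Many human genes hold more than 1 such signal, and ends that use them in turn are called tandem alternative polyadenylation sites. When the ends lie this close, the transcripts differ by a short stretch at the 3′ end, which may hold or lack binding sites of proteins or microRNAs. The share of a pair's counts at its downstream end, called the downstream share here, says which of the ends is used more among the RNAs of a library. It does not depend on how libraries are scaled.

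The 30 min library held 14159691 counts, the 60 min library 8926568 and the input 35410931, of which 31.8%, 31.1% and 7.46% were mitochondrial and were kept apart. The pairs held 11.8%, 13.6% and 9.18% of the nuclear counts. A single pair on chromosome 20 accounted for much of this, and without it the shares were 7.58%, 6.13% and 7.95%. The median pair had 268, 123 and 663 counts, and every pair had counts in each library, with lowest values of 18, 7 and 4. A downstream share is therefore measured most coarsely in the 60 min library. Positions count from 1 as in the files, whose genome build the labels do not name, so no pair was assigned to a gene and no sequence is shown. Nor were ends checked for poly(A) signals upstream or for A content downstream. Oligo(dT) priming inside an RNA, away from its poly(A) tail, was therefore not tested. For the same reason the label HEK293T was not checked against marker genes. In such bulk libraries, fewer cells of a type and less RNA per cell cannot be told apart.

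The ends of most pairs were sharply separated. The median distance was 96 nt, with quartiles at 57 and 157 nt, and short distances were the more common, with 8.72 pairs per nt below 50 nt and 2.44 and 2.96 per nt in the last bins of 25 and 26 nt before the upper limit. In 930 of 1147 pairs no count at all lay within 2 nt of the midpoint between the ends. In 25 pairs the midpoint held at least 50% of the counts around the smaller end, and 23 of these were among the 218 pairs spaced 25 to under 50 nt, where ends are least cleanly parted and the merging of positions within 24 nt set the lower limit. The standard deviation (SD) of positions within an end had a median of 3.10 nt at upstream ends and 2.94 nt at downstream ends, and the highest position held a median of 42.9% and 41.9% of the end's counts. Only 6 pairs had an end with at least 90% of its counts at 1 position. In 680 pairs the cluster held no further site, while 467 had at least 1 minor site of under 5% of the counts.

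**Figure D1:**
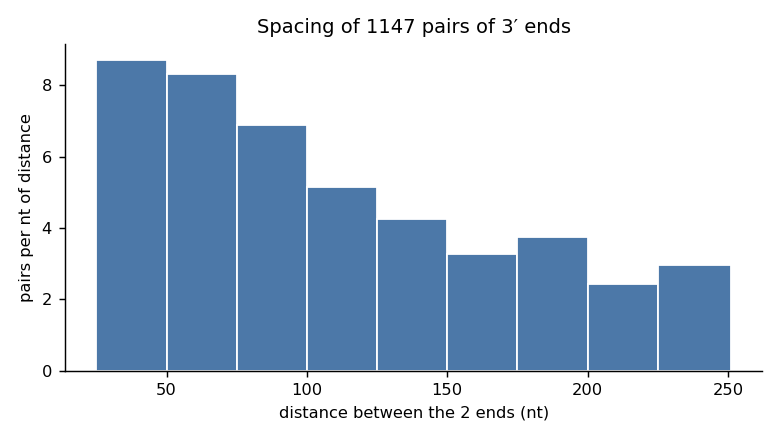
Number of pairs per nt of distance (y) against the distance between the 2 ends in nt (x), in bins of 25 nt (the last of 26 nt), over all 1147 pairs. The tallest bar, at 8.72 pairs per nt, is the first, and the lowest, at 2.44, is the last but one.

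Captured RNA and input mostly shared the highest position of each end. Of upstream ends with at least 50 counts in both libraries, 643 of 717 had their highest position at the identical nucleotide in 4sU 30 min and input, and of downstream ends 735 of 818. Between 4sU 60 min and input the highest position was identical at 467 of 523 upstream and 548 of 607 downstream ends. The counts within an end lay slightly upstream in captured RNA, by a median of 0.136 nt at upstream ends and 0.129 nt at downstream ends in 4sU 30 min relative to input. Upstream and downstream ends thus moved by like amounts, far below the smallest spacing of a pair.

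Both ends were often the larger one. The downstream end was the larger in 645 pairs in 4sU 30 min, in 635 at 60 min and in 631 in input, while the upstream end was the larger in 502, 503 and 515, with the rest tied. The median downstream share was 61.9% in 4sU 30 min (quartiles 21.9% and 85.7%), 62.0% at 60 min (19.4% and 85.8%) and 60.0% in input (18.2% and 86.6%). Lopsided pairs were common: 373, 368 and 400 pairs had a downstream share over 80% in the 3 libraries in this order, and 268, 290 and 300 had one under 20%. The removal of sites under 5% of a cluster cuts off the most lopsided pairs. By spacing, the downstream end was the larger in 112 of 218 pairs at 25 to under 50 nt in 4sU 30 min, in 117 at 60 min and in 115 in input. At 200 to 250 nt it was the larger in 79, 78 and 76 of 138 pairs. The quartiles of the share overlapped widely between spacing classes and libraries.

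**Figure D2:**
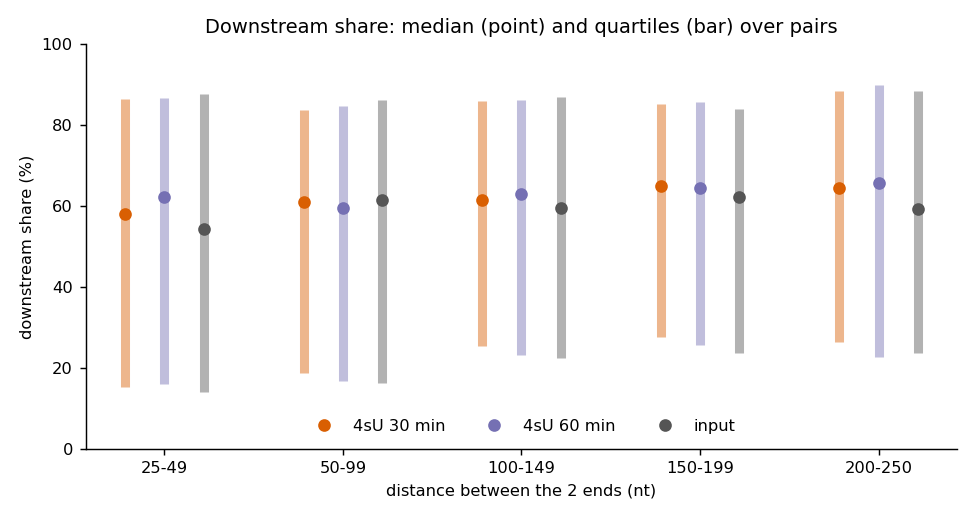
Downstream share in percent (y) by distance between the ends in nt (x), with the median over pairs as a point and the quartiles as a bar, for 4sU 30 min, 4sU 60 min and input. Medians lie between 54.3% and 65.8% in every class and library, and the quartile bars of all classes overlap.

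After 30 min of labelling, the downstream share was at least 10 points higher than in input in 140 pairs and at least 10 points lower in 100, with 907 pairs called neither. The comparison asks whether captured RNA, which favours newly made RNA, uses the ends in the same proportion as the input. The 4sU libraries also skipped the first poly(A) selection, so RNA age and preparation cannot be told apart in any comparison with input. A pair was called when the change reached 10 percentage points and Newcombe's 95% interval of the difference excluded 0. The pairs called higher were 12.2% of all pairs, against 18.8% for the outermost downstream end among all 5504 clusters, and those called lower were 8.72%, against 9.68%. The share of pairs called higher thus lay below that of the clusters at large. Over all pairs the change had a median of 0.771 points, with quartiles at -3.97 and 5.13, and it was above 0 in 622 pairs and below 0 in 525.

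The median change was small at every spacing within these limits. At 25 to under 50 nt the median change in 4sU 30 min relative to input was 0.454 points, with 19 of 218 pairs called higher and 15 lower. At 50 to under 100 nt it was 0.629 points, with 42 of 380 called higher and 37 lower. At 100 to under 150 nt it was 0.683 points (34 of 235 higher, 21 lower). It was 1.27 points at 150 to under 200 nt (25 of 176 higher, 15 lower) and 1.30 points at 200 to 250 nt (20 of 138 higher, 12 lower). The quartiles, from -3.42 to 3.57 points in the narrowest class and from -2.69 to 5.47 points in the widest, were far wider than the difference between these medians.

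Among pairs spaced more widely, higher calls outnumbered lower ones by more than in closely spaced pairs only beyond 500 nt, in 4sU 30 min against input. At over 250 to 500 nt the median change in 4sU 30 min relative to input was 0.153 points in 493 pairs, with 84 called higher and 71 lower, or 54.2% higher among the calls, so the medians did not climb evenly with distance. At over 500 to 1000 nt it was 2.33 points, with 120 of 579 higher and 48 lower, and at over 1000 to 2000 nt it was 2.94 points, with 181 of 709 higher and 64 lower. Higher calls made up 58.3% of the calls in closely spaced pairs and 68.5% of those in all 1892 pairs more than 250 nt apart. In 4sU 60 min against 4sU 30 min those shares of the calls were 41.8% and 44.0%. With 1 library per group these differences could not be tested, since pairs are not replicates of a condition.

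**Figure D3:**
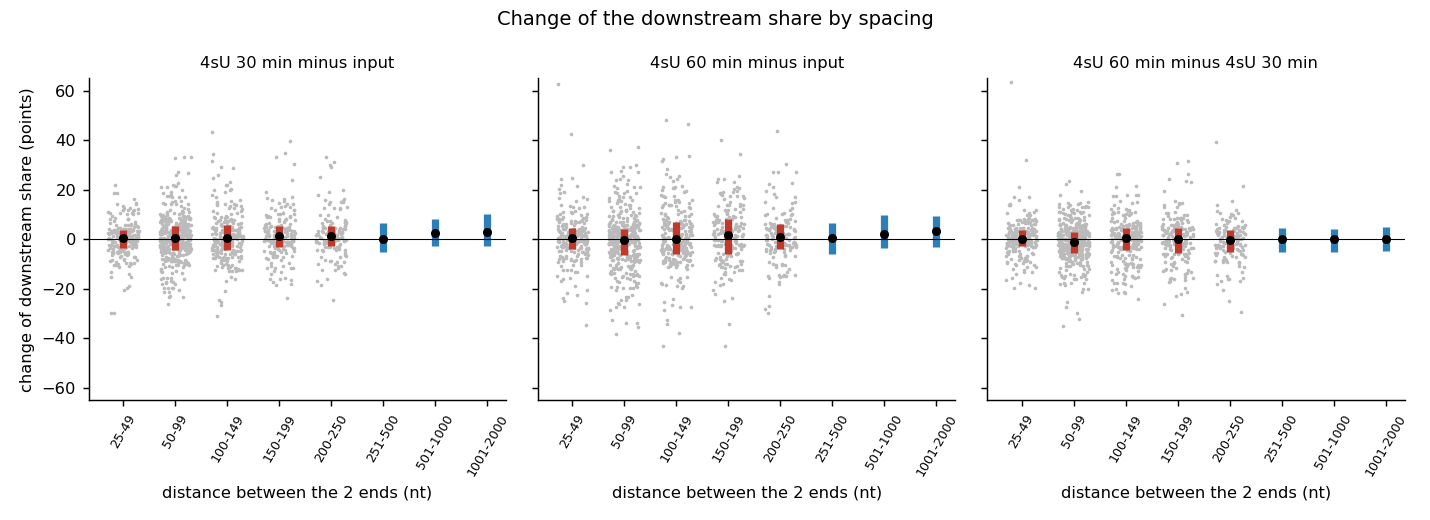
Change of the downstream share in percentage points (y) by distance between the ends in nt (x), for 4sU 30 min minus input, 4sU 60 min minus input and 4sU 60 min minus 4sU 30 min. Grey dots are closely spaced pairs (scattered sideways for legibility), black points are class medians, and bars are quartiles in red for closely spaced and blue for wider pairs; medians of the 5 close classes lie between -1.03 and 1.54 points.

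The largest rises in 4sU 30 min over input, among the 923 pairs with at least 50 counts in each library, came about in different ways. For chromosome 5 (minus strand), the pair at 112214344 (upstream) and 112214178 (downstream), 166 nt apart, had 79 upstream and 298 downstream counts in 4sU 30 min, 77 and 72 at 60 min, and 2101 and 1356 in input. Its downstream share was 79.0% in 4sU 30 min (74.7 to 82.9), 48.3% at 60 min (40.4 to 56.3) and 39.2% in input (37.6 to 40.9). At 30 min the upstream end was at 0.128 times its input level in nuclear counts scaled to a common total (CPM), and the downstream end at 0.746 times. At 60 min both ends were also below input, at 0.195 and 0.283 times, and the share exceeded that of the input by 9.10 points (1.05 to 17.2), under the 10 points of a call.

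For chromosome 11 (minus strand), the pair at 60658198 and 60658022, 176 nt apart, had 340 of 891 counts at its downstream end in 4sU 30 min, or 38.2% (35.0 to 41.4), and 76 of 339 in 4sU 60 min, or 22.4% (18.3 to 27.2). That end was minor in the input, with 193 of 4044 counts or 4.77% (4.16 to 5.47). Here the ends parted in opposite directions at 30 min, with the downstream end at 5.98 times its input CPM and the upstream end at 0.486 times. For chromosome 1 (plus strand), the pair at 153964627 and 153964820 was of the same form, with 45.1% in 4sU 30 min (132 of 293 counts), 19.0% at 60 min (28 of 147) and 10.04% in input (140 of 1394).

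A rise was also seen where both ends were enriched. For chromosome 13 (minus strand), the ends at 21742259 and 21742022, 237 nt apart, were 3.01 and 11.9 times as high in 4sU 30 min as in input, and the downstream share was 65.4% in 4sU 30 min, 44.9% at 60 min and 32.3% in input. The other pairs among the 6 largest rises lay on chromosome 8 (plus strand) at 107285001 and 107285126, with 53.8%, 66.0% and 19.4%, and on chromosome 6 (minus strand) at 83602189 and 83602118, with 51.1%, 53.7% and 17.8%, in the same order of libraries. These last pairs rest on few counts, with 104 and 139 in the 30 min library.

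With nuclear CPM, the upstream end exceeded its input level at 30 min in each of the 6 largest falls, by intervals excluding 1. The downstream end was above, near or below its own input level. These intervals were not recomputed with another scaling, which would shift all ratios together. Choosing pairs by a fallen downstream share favours a raised upstream end, so nothing is read from this pattern. For chromosome 16 (plus strand), the pair at 462370 and 462481, 111 nt apart, had 126 upstream and 37 downstream counts in 4sU 30 min, 96 and 18 at 60 min, and 119 and 137 in input. The downstream share was 22.7% in 4sU 30 min (16.9 to 29.7), 15.8% at 60 min (10.2 to 23.6) and 53.5% in input (47.4 to 59.5). Both captured libraries lay below the input. The upstream end was at 3.59 times its input CPM in 4sU 30 min, and the interval of the downstream end's ratio, 0.917 (0.620 to 1.33), included 1.

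For chromosome 1 (plus strand), the pair at 3546638 and 3546689, 51 nt apart, had 155 counts at its upstream end in 4sU 30 min and 40 in 4sU 60 min, against 23 in input. That end was 22.9 times its input CPM at 30 min (14.7 to 37.2) and the downstream end 3.20 times (2.74 to 3.74), so the share was 67.3% in 4sU 30 min, 69.2% at 60 min and 93.6% in input. The pair on chromosome 11 (minus strand) at 65545236 and 65545094 was alike, with upstream and downstream ends at 16.2 and 3.58 times input and shares of 63.3%, 63.1% and 88.7%. In the deepest pair of these falls, on chromosome 6 (plus strand) at 31797907 and 31798031, the downstream share was 54.1% in 4sU 30 min (52.9 to 55.4), 37.5% at 60 min (35.6 to 39.5) and 80.5% in input. Its upstream end was at 2.52 times and its downstream end at 0.717 times the input level at 30 min. The remaining falls, on chromosome 1 (plus strand) at 149858926 and 149858960 and on chromosome 14 (minus strand) at 32672303 and 32672261, were of ends 34 and 42 nt apart, with shares of 27.3% and 38.7% in 4sU 30 min against 57.2% and 68.5% in input. In the chromosome 1 pair the downstream end moved further, to 0.459 times its input CPM (0.248 to 0.790), than the upstream end at 1.64 times (1.09 to 2.41). In the chromosome 14 pair the upstream end was at 2.75 times and the downstream end at 0.799 times input.

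**Figure D4:**
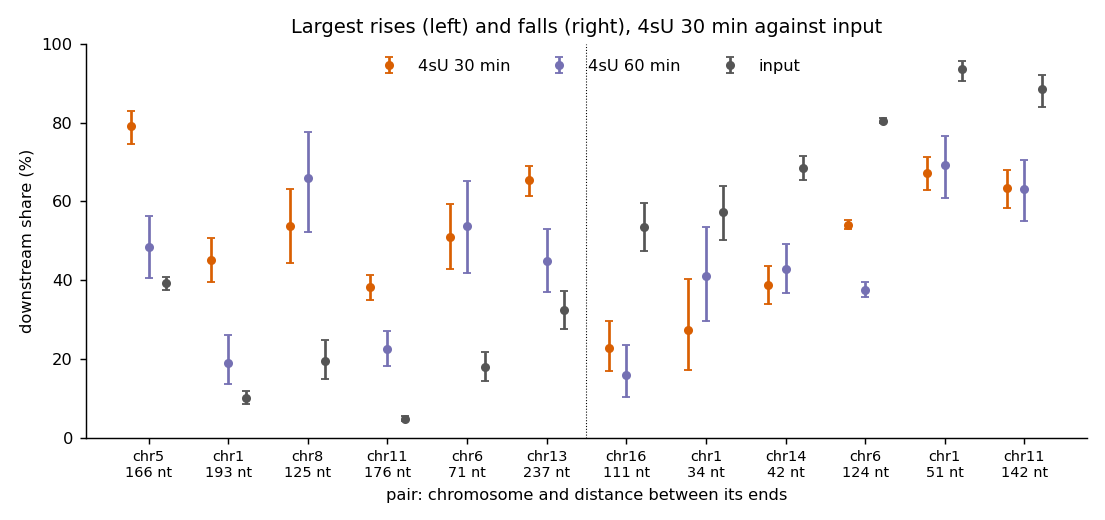
Downstream share in percent (y) with Wilson 95% intervals (counting error) in 4sU 30 min, 4sU 60 min and input, for the 6 pairs with the largest rises (left of the dotted line) and the 6 with the largest falls (right) in 4sU 30 min over input. The chr5 pair has 79.0% in 4sU 30 min against 39.2% in input, and the chr16 pair 22.7% against 53.5%.

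Taken over all called pairs, a higher downstream share at 30 min went with an upstream end below its input level and a downstream end above it. In the 140 pairs called higher, the upstream end had a median log2 ratio of 4sU 30 min over input of -0.76 and the downstream end one of 0.73. In the 100 called lower, the upstream end had a median of 1.37 and the downstream end one of 0.04. In the 907 called neither, the medians were 0.17 and 0.21. The upstream end was at least 2-fold above input in 57 of the 100 pairs called lower and in 276 of the 907 called neither. A call selects pairs whose ends part in its direction, and a lower downstream share favours pairs with a raised upstream end. Nothing is therefore read from these medians or from this difference. Another scaling shifts all these log2 ratios together. The median log2 ratio of summed counts over all pairs was 0.17 with nuclear CPM, -0.27 with mitochondrial counts in the total, -0.19 with TMM and -0.20 with median-of-ratios factors.

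Pairs as wholes were enriched in captured RNA about as often as all clusters, which include the pairs. At 30 min, 343 pairs, or 29.9%, exceeded input by 2-fold or more with an exact 95% interval that excluded 1, against 30.1% of all clusters, and 210, or 18.3%, were lower, against 16.1%. At 60 min, 220 pairs (19.2%) were higher, against 19.9% of clusters, and 302 (26.3%) were lower, against 24.2%. Between 4sU 60 min and 4sU 30 min, 16 pairs (1.39%) were higher, against 1.13% of clusters, and 216 (18.8%) were lower, against 16.2%. All these level calls use nuclear CPM. They were not repeated with another scaling, which shifts all level ratios together. Among the 210 pairs that were lower in 4sU 30 min, 30 (14.3%) had a higher downstream share and 10 (4.76%) a lower one. Among the 343 that were higher, 37 (10.8%) and 38 (11.1%) did. Over all pairs 12.2% were called higher and 8.72% lower, and over all clusters 18.8% and 9.68%. The shares called among clusters of each level class were not computed. The median pair was of 2017 summed counts in the lower class and 750 in the higher class, so the classes differ in depth, and its part in these counts was not tested.

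After 60 min of labelling, the downstream share was at least 10 points higher than in input in 161 pairs and lower in 138, with 848 called neither. Those higher were 14.04% of pairs, against 21.6% of all clusters, and those lower 12.03%, against 10.9%. The median change was 0.349 points, with quartiles at -5.50 and 6.00. Medians by spacing were 0.370 points at 25 to under 50 nt, -0.133 at 50 to under 100 nt, 0.210 at 100 to under 150 nt, 1.54 at 150 to under 200 nt and 0.738 at 200 to 250 nt. At 50 to under 100 nt more pairs were called lower than higher, 57 against 47 of 380, while at 100 to under 150 nt 42 of 235 were higher and 24 lower. The 30 and 60 min comparisons share the input library, so agreement between them is not separate support.

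In 4sU 60 min relative to input, called pairs of both directions had ends whose medians lay on opposite sides of 0. The 161 pairs called higher had a median log2 ratio of -0.92 at the upstream and 0.55 at the downstream end. The 138 called lower had 0.73 at the upstream and -0.87 at the downstream end. A call selects pairs whose ends part in its direction, so nothing is read from these medians.

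Between the labelling times more pairs were called lower than higher. The downstream share was at least 10 points higher at 60 than at 30 min in 66 pairs and lower in 92. Those higher were 5.75% of pairs, against 9.16% of all clusters, and those lower 8.02%, against 8.48%. The median change was -0.225 points, with quartiles at -4.78 and 3.89. This comparison shares the 30 min library with that of 4sU 30 min against input, so opposite directions in them are not separate results. At 50 to under 100 nt it was -1.03 points in 380 pairs, with 21 called higher and 27 lower, and at 200 to 250 nt it was -0.423 points, with 4 of 138 higher and 13 lower. In the other classes it was 0.159 points at 25 to under 50 nt, 0.395 at 100 to under 150 nt and 0.013 at 150 to under 200 nt.

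For chromosome 17 (minus strand), the pair at 6481651 and 6481468, 183 nt apart, had the largest rise, with 18 upstream and 50 downstream counts in 4sU 60 min, against 84 and 63 in 4sU 30 min. Its downstream share was 73.5% at 60 min (62.0 to 82.6) and 42.9% in 4sU 30 min (35.1 to 50.9), and 48.0% in input (43.2 to 52.9). Only the 60 min library stood apart here. For chromosome 1 (plus strand), the pair at 45809644 and 45809763, 119 nt apart, had a share of 59.2% at 60 min (242 of 409 counts) and 33.0% in 4sU 30 min (304 of 922), and 10.97% for the input (68 of 620). Its downstream end was 19.0 times its input CPM at 60 min and 15.2 times at 30 min, while its upstream end was 1.61 and 3.80 times as high. The shares of this pair thus differed between all 3 libraries with intervals that did not overlap.

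The next largest rises were on chromosome 3, on the plus strand. At 48485444 and 48485615 the downstream share was 65.6% at 60 min (60.8 to 70.1) and 41.4% in 4sU 30 min (37.3 to 45.6), and 42.3% in input. At 183888663 and 183888732 it was 81.6% at 60 min and 58.2% in 4sU 30 min, and 54.4% in input.

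The largest falls in 4sU 60 min relative to 4sU 30 min included the pair of chromosome 5 described above, at 48.3% in 4sU 60 min against 79.0% in 4sU 30 min. Chromosome 12 (plus strand) gave a further pair at 3050216 and 3050299, where the downstream share was 38.0% at 60 min (19 of 50 counts) and 70.1% in 4sU 30 min (54 of 77), and 73.4% in input. Chromosome 18 (plus strand) gave a further pair at 3278182 and 3278252, where the share was 47.3% at 60 min (35 of 74) and 77.1% in 4sU 30 min (225 of 292), and 69.9% in input. Chromosome X (plus strand) gave a further pair at 102842443 and 102842653, where the share was 8.54% at 60 min (17 downstream counts) and 37.9% in 4sU 30 min (111 of 293), and 23.6% in input. In the chromosome 18 and X pairs the input share lay between those of the labelling times.

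**Figure D5:**
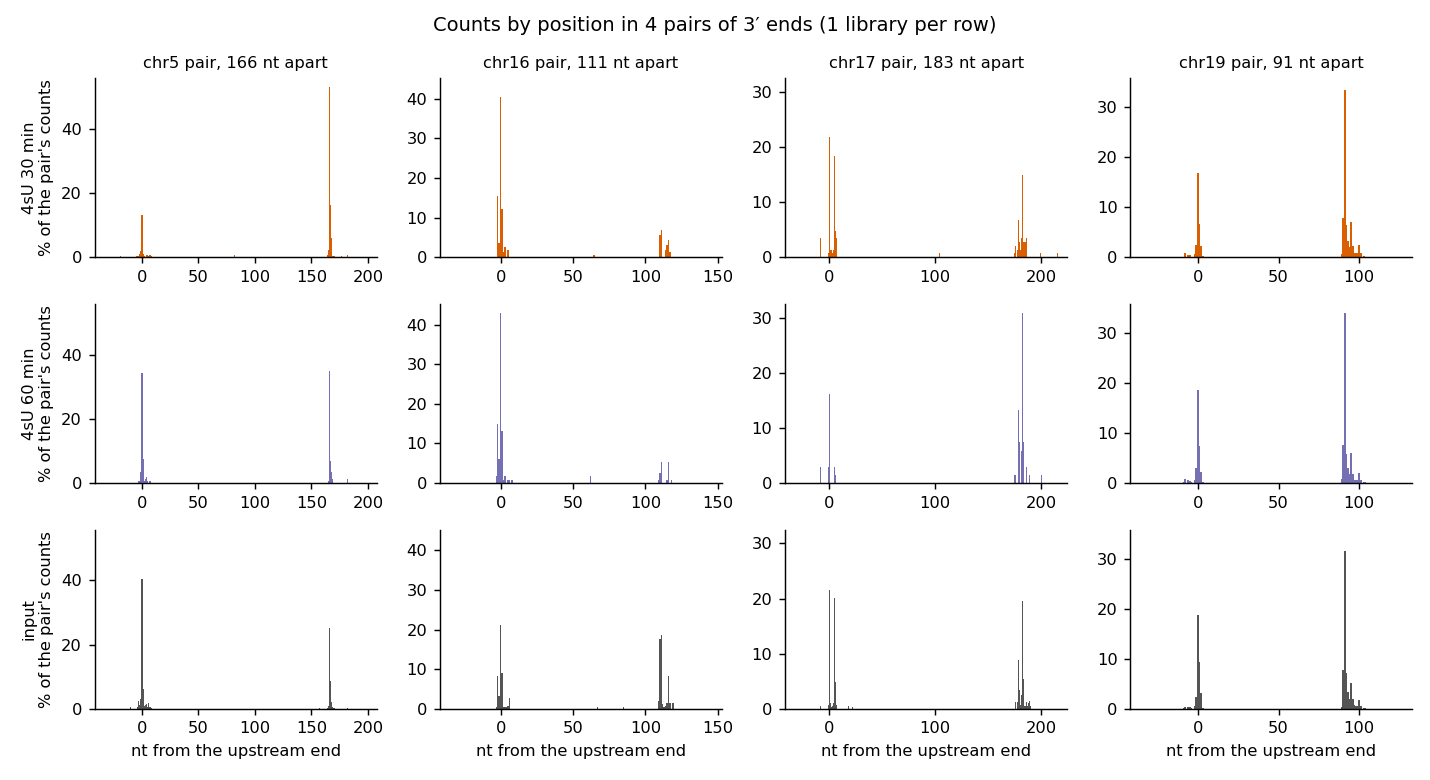
Counts at each position as a percent of the pair's counts in that library (y) against the distance in nt from the upstream end's highest position (x), for 4 pairs in columns and 4sU 30 min, 4sU 60 min and input in rows. The chr5 pair has 79.0% of its counts at the downstream end in 4sU 30 min against 39.2% in input, the chr16 pair 22.7% against 53.5%, and the chr19 pair 69.1% against 63.9%.

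Few pairs changed their larger end. Counting a switch where the 95% intervals of the downstream share lay on opposite sides of 50%, the larger end was the downstream one in 4sU 30 min and the upstream one in input in 16 pairs, and the reverse in 8. These were 2.09% of pairs together, against 3.23% of all clusters by the same rule on the outermost downstream end and 3.91% of pairs more than 250 nt apart. Between 4sU 60 min and input there were 16 and 11 such pairs (2.35%, against 3.85% of clusters), and between 4sU 60 min and 4sU 30 min 3 and 4 (0.610%, against 1.07%). The pair on chromosome 3 (plus strand) at 40503768 and 40503858, 90 nt apart, switched between the labelling times, with 34.2% downstream at 60 min (319 of 932 counts) and 59.5% in 4sU 30 min (1134 of 1905), and 38.3% for the input (5967 of 15595).

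Changes were most frequent where both ends were well used. Of the 461 pairs with a downstream share of 20% to 80% in the summed counts, 35.1% were called in 4sU 30 min against input, 99 higher and 63 lower. Of the 296 pairs under 20%, 12.5% were called, and of the 390 pairs over 80%, 10.5%. A share near 0 or 100% has less room to move, so these classes are not alike in what could be called.

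The 5 most abundant pairs kept their balance within 10 points although their levels moved several-fold. In 4sU 30 min against input, 79.1% of all pairs and 71.5% of all clusters were called neither, so the lack of a call was not particular to them. For chromosome 20 (minus strand), the ends at 3764529 and 3764500, 29 nt apart, had 410513 counts in 4sU 30 min, 462336 at 60 min and 402523 in input. The downstream end held 89.9%, 92.3% and 89.8% of them, while the pair rose to 3.46 times its input CPM at 30 min and 6.12 times at 60 min. The intervals of these shares are narrow, and the change of 2.37 points in 4sU 60 min relative to 4sU 30 min (2.25 to 2.49) exceeded counting error.

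For chromosome 1 (plus strand), the ends at 45244382 and 45244411, also 29 nt apart, held a downstream share of 65.4% in 4sU 30 min, 67.1% at 60 min and 68.1% in input, while the pair stood at 0.298 and 0.425 times its input CPM. For chromosome 21 (plus strand), the ends at 33040986 and 33041236 held 26.9%, 25.3% and 27.6% downstream, at 0.209 and 0.328 times the input CPM. At 197682687 and 197682719 on chromosome 3 (plus strand) the shares were 32.9%, 32.1% and 39.5%. At 812221 and 812312 on chromosome 19 (plus strand), a pair 3.49 times as high in 4sU 30 min as in input, they were 69.1%, 65.7% and 63.9%.

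The most abundant pairs of the middle spacing classes also moved by under 10 points. Chromosome 17 (minus strand) gave a further pair at 5336099 and 5335957, 142 nt apart, where the downstream share was 3.49% in 4sU 30 min, 3.25% at 60 min and 6.08% in input. A share of 6.08% cannot fall by 10 points, so the lack of a lower call was fixed here. At 30 min the change was -2.59 points (-3.04 to -2.11). The downstream end was at 0.379 times its input CPM and the upstream end at 0.679 times. Chromosome 1 (minus strand) gave a further pair at 45976900 and 45976723, 177 nt apart, where the share was 71.1%, 72.8% and 78.6%.

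The pairs nearest the limits of the rule are given for their values alone. The deepest pairs at 250 nt, on chromosomes 21, 1 and 4, had downstream shares in input of 27.6%, 40.03% and 82.4%. The deepest pairs 1 nt beyond, just outside and on chromosomes 1, X and 19, had 47.9%, 90.8% and 29.5%. At the lower limit of 25 nt, the 3 deepest pairs had input shares of 11.8%, 7.57% and 12.2%, all with a minor downstream end. The pairs with the fewest counts inside had 300, 301 and 301 summed counts, and the 3 nearest outside had 298 each.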

How the data were processed

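Per the labels' protocols, 2P-seq libraries were made by poly(A) selection, light RNase T1 digestion, a second selection, reverse transcription from anchored oligo(dT), size selection, circularisation and amplification, and the 4sU libraries skipped the first selection. The tools cutadapt and Bowtie are named in the submitters' processing notes, with no version, and the labels name no genome build. The deposited tables, 1 per library, hold raw counts by position and strand, and no molecular identifiers are described. Strand was read as the RNA's own.

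Counts of the 3 libraries were summed, positions within 24 nt of the highest were merged into sites, and nuclear sites of at least 20 counts with gaps of at most 2000 nt formed clusters. Sites under 5% of a cluster were dropped. Shares carry Wilson and differences Newcombe 95% intervals; ratios of CPM carry exact 95% intervals of 2 Poisson counts. With 1 library per group no test between groups was run, and the called pairs are set beside the share called among all clusters of at least 300 counts. Scaling alternatives used edgeR 4.0.16 (TMM); the rest ran in Python 3.11.15 with numpy 2.4.6, scipy 1.17.1 and pandas 2.3.3. The calls were tested on simulated data that held counting error alone, so that test says nothing about variation between libraries.

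Named pairs were, among called pairs with at least 50 counts in each library, the 6 largest rises and 6 largest falls for 4sU 30 min against input and the 4 and 4 for 4sU 60 min against 4sU 30 min, then the 5 pairs with the most counts, the deepest of each spacing class, and those nearest each limit. The chromosome 3 pair named for its switch was chosen after its values were seen. The members, lists and limits were chosen with earlier results of these data known. Planned sequence analyses were not run, as no genome of the files' build was used.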

Additional observations from a re-analysis of the deposited data

Results flagged for a closer look

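Minor sites that the rule dropped from the clusters, each under 5% of its cluster and outside the comparisons above, held more of the counts in captured RNA than in input once the pair with the most counts was left out. They held 2.33% of the clusters' counts in 4sU 30 min, 2.07% at 60 min and 1.80% in input. With that pair the shares were 1.55%, 0.976% and 1.57%, so the direction rests on leaving out 1 pair of chromosome 20. By cluster, among the 467 pairs with such sites, the dropped share was higher at 30 min than in the input for 308 and lower for 159, with medians of 3.42% and 2.83%. Between 4sU 60 min and input it was higher in 277 and lower in 190. Sites were dropped by counts summed over the libraries, and the input gave most of these counts. The rule thus favours sites that are small in input, and nothing is read from the direction. No test was possible with 1 library per group.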

How the results depend on the processing

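Over 17 settings, the reported one included, more pairs were called higher than lower in 4sU 30 min against input and in 4sU 60 min against input, and fewer in 4sU 60 min against 4sU 30 min. Higher calls made up 55.0% to 67.9%, 50.8% to 57.8% and 39.3% to 45.7% of calls in these comparisons. Other merging windows (12 and 36 nt), gaps (1000 and 5000 nt), site shares (2% and 10%), site minimums (10 and 50 counts), a minimum of 50 counts in each library compared, and leaving out pairs with an end at 1 position kept every count within 1.5 times; so did, as choices made after seeing the data, leaving out the pairs with counts at the midpoint or the pair with the most counts.

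The other counts moved with the thresholds. With at least 100 summed counts there were 1726 pairs, of which 166 were lower in 4sU 30 min than in input. With at least 1000 there were 620, with 80 higher and 42 lower in 4sU 30 min against input, 82 and 71 in 4sU 60 min against input, and 35 and 54 in 4sU 60 min against 4sU 30 min. A call at 5 points gave 240 higher and 191 lower at 30 min, 218 lower at 60 min, and 105 higher and 153 lower between times. A call at 20 points gave 36 and 17, 59 and 43, and 16 and 19.

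The median log2 ratio of pair levels in 4sU 30 min over input was 0.45 with at least 100 counts, -0.11 with at least 1000, -0.27 with mitochondrial counts in the total, -0.19 with TMM and -0.20 with median-of-ratios factors. In 4sU 60 min over input it was -0.037, -0.48, -0.70 and -0.37 in the first 4 of these settings. In 4sU 60 min over 4sU 30 min it was -0.36 with at least 1000 counts, -0.15 with TMM and -0.10 with median-of-ratios factors.

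The median change of the share over all pairs kept its sign in all 15 settings of each comparison. By spacing, signs changed with the setting in several classes, among them 25 to under 50 nt for 4sU 30 min against input, which ran between -0.154 and 0.523 points. The median at 200 to 250 nt exceeded that at 25 to under 50 nt in 15 of 15 settings for 4sU 30 min against input, by 0.425 to 1.67 points, and in 13 of 15 for 4sU 60 min against input (-1.42 to 1.39). For 4sU 60 min against 4sU 30 min it did so in 0 of 15 (-1.86 to -0.213). The comparisons share libraries, so these orders are not separate results. No paired analysis was possible because each group has 1 library. Depth limits the 60 min shares most, where the median pair has 123 counts.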

Other observations

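The pairs lay on 23 chromosomes, with 552 on the plus and 595 on the minus strand. They were 12.4% of the clusters on chromosome 10 and 26.0% on chromosome 16, the lowest and highest of the chromosomes. On chromosome 11, 15 of 61 pairs were called higher and 4 lower in 4sU 30 min against input, while on chromosome 21 0 of 19 were called higher and 4 lower. Over all chromosomes, 12.2% of pairs and 18.8% of clusters were called higher, and 8.72% and 9.68% were called lower. The share called among the clusters of each chromosome was not computed. These chromosomes were chosen after their values were seen, and nothing is read from their counts. An end on the opposite strand within 500 nt downstream was found for 66 of 1147 pairs (5.75%), against 290 of 5504 clusters (5.27%).

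The highest change of any pair in 4sU 60 min against input was 62.6 points, on chromosome 17 (plus strand) at 43183341 and 43183384, but it rests on 7 counts in 4sU 60 min, 5 of them downstream, and its midpoint held 58.3% of the counts around the smaller end. The highest in 4sU 30 min against input, 43.5 points, was on chromosome 11 (minus strand) at 77524321 and 77524206, with 35 of 40 counts downstream in 4sU 30 min and 204 of 464 in input; 98.9% of the counts of its upstream end lay at 1 position. Chromosome 22 (plus strand) gave a further pair at 29449809 and 29449975, where the downstream share was 26.0% in 4sU 30 min, 6.41% at 60 min and 49.6% in input.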
